A study of Mus musculus with 6 samples.

Results

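The interferon response and MHC class I genes are a list of 38 mouse genes, drawn up from known roles in the pathway. The list was chosen with earlier results of these data known, so it is not independent of them. They are 2 sensors of viral RNA, 1 interferon, 4 signalling factors, 2 genes of the ubiquitin-like modifier Isg15, 12 antiviral effectors, 4 other interferon-induced genes, 4 guanosine triphosphatases (GTPases) and 9 genes of antigen presentation. A member was taken where a non-control probe of the array carried its name or its older name (G1p2 for Isg15, Isgf3g for Irf9). That rule found 36 of the 38, on 59 of 41174 probes, among 27670 genes on the array, and found no probe for Gbp3 or Xaf1. Of the 36, 32 were tested, each through its brightest probe over all arrays, because in at least 1 group every array had that probe well above background. Ifi44, Oas2, Mx1 and Tap1 were dimmer and were not tested. Irf7 entered through the ko arrays and Ddx58 through the control arrays, since each was well above background on only 2 arrays of the other group.

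RNA of whole dissected cerebral cortex from male mice was hybridised to 1-colour Agilent arrays, 1 per sample. The ko group is samples 53, 48 and 54, labelled Cux2 knock-out with the genotype Cux2-/-. The control group is samples 15, 62 and 16, whose titles say wild type and whose genotype label says Cux2+/-, so they are called controls here. Age, strain and the design of the Cux2 allele are not given in the sources used here. Nothing says that the samples are from separate animals, so a p-value here reflects only how these samples spread, which may be technical. Cux2, a homeodomain factor of upper-layer neurons, gave no call on its brighter probe (-0.04, -0.05 and -0.01 on the ko arrays, against -0.03, 0.27 and 0.03 on the control arrays, difference -0.12, limma adjusted p = 0.838). Nothing places that probe inside the altered sequence, so it is no check of the labels. All 5 markers of cortical neurons, Snap25 and Slc17a7 among them, were well above background on every array. Between 58.5% (ko 48) and 72.7% (control 16) of probes were well above background on an array.

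Type I interferons bind a receptor of Ifnar1 and Ifnar2, whose kinases Jak1 and Tyk2 phosphorylate Stat2. Stat2 and Irf9 belong to a complex that binds interferon-stimulated response elements (ISRE) in the promoters of antiviral genes, while interferon gamma acts through gamma-activated sites (GAS). MHC class I molecules, heavy chains paired with B2m, carry peptides to the cell surface. These peptides are cut by the immunoproteasome (Psmb8, Psmb9) and pumped by the transporter of Tap1 and Tap2 before class I molecules carry them. In the brain class I molecules are found on neurons as well as on glia and vessel cells.

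The promoters of 4 members are shown because these genes stood high together on 1 array, and because they hold the letters of the ISRE. Each is the 250 bases before the transcription start in RefSeq, assembly GRCm38.p6, written 5′ to 3′ along the strand of the gene. Capitals mark matches to the letters GAAANNGAAA or, on the other strand, TTTCNNTTTC, where N is any base.
Isg15 (minus strand, chr4:156200819-156201068) encodes a ubiquitin-like protein.
Isg15: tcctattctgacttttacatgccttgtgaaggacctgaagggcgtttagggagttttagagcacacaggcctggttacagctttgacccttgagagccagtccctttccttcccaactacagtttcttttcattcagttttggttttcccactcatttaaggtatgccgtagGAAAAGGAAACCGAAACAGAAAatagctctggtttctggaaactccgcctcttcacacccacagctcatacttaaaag
Ifit1 (plus strand, chr19:34640639-34640888) and Ifit3 (plus strand, chr19:34583279-34583528) encode tetratricopeptide proteins of the antiviral response.
Ifit1: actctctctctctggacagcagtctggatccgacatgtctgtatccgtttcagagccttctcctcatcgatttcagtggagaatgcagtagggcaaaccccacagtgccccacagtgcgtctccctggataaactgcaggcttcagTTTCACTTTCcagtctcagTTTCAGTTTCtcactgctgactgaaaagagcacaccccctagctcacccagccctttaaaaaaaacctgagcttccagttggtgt
Ifit3: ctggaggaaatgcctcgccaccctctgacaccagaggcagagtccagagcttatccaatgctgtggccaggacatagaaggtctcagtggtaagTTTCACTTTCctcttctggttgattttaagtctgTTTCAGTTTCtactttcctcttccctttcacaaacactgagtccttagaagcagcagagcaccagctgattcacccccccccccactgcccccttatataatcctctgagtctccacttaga
Oas1a (minus strand, chr5:120907526-120907775) encodes a sensor of double-stranded RNA that makes the second messenger oligoadenylate, and its 2 matches overlap.
Oas1a: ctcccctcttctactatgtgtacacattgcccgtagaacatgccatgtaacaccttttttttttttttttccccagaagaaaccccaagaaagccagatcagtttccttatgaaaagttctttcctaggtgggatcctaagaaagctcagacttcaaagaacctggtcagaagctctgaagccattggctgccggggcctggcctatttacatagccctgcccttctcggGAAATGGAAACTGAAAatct
Ifit1, Ifit3 and Oas1a hold 2 matches each. A promoter sequence was given for 31 of the 38 members, and 12 of them (38.7%) hold these letters, as do 936 of the 27025 genes with a promoter sequence (3.46%). The other 8 are B2m, Bst2, Gbp2, Gbp3, H2-T23, Igtp, Rsad2 and Stat2. The GAS letters TTCNNNGAA, which read the same on both strands, are in 7 of the 31 (22.6%) and in 2197 of all genes (8.13%), with Irf1, Psmb8 and Oas1a among the 7. The promoter window of Ifnz holds neither motif. Such a match is a description of the letters in this window and not a bound site.

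Control 16 stood apart from the other arrays in these genes, so its values come before any comparison of the groups. Levels are log2 signals relative to the 75th percentile of the same array, so that 0 is that percentile, and they are given for ko 53, 48 and 54 and for control 15, 62 and 16, in that order. Of the 32 tested members, 25 (78.1%) had their highest level on control 16, where 14.6% of all 17122 tested genes had theirs. The members' median on control 16 was 0.71 above the mean of the other 2 controls, or 1.64-fold, while the median over all tested genes was -0.04. On the same array 31 of 32 members lay above the mean of the other 2 controls, Ifnz being the exception. Among all genes 42.7% did so.

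Of all tested genes, 80 (0.467%) lay more than 1 log2 unit above the other controls on control 16, and 13 of those 80 were members. These 13, which are 40.6% of the tested members and 16.2% of the 80 genes, were Ifit1, Ifit3, Ifi27, Isg15, Usp18, Irf7, Irf9, Oas1a, Oasl2, Mx2, Iigp1, H2-D1 and Ddx58. Ddx58 entered the test only through the control arrays, the group of control 16. Its place among the 13, and among the members highest on control 16, is therefore no support for the pattern. On ko 54, where 0.724% of all genes lay that far above the other ko arrays, Ifi27 was the 1 member to do so. Median, quantile or no scaling and the authors' deposited values kept 31 members above the other controls on control 16, at medians of 0.67 to 0.80, and another background correction (normexp) gave 28 members and a median of 1.21. Under normexp 20 members lay more than 1 log2 unit above the other controls there, but so did 4517 of all tested genes (26.4%). Control 16 lies on the same slide as ko 53 and control 62, on which the members' medians were -0.25 and -0.31 relative to the other arrays of their groups. Both medians are set against a mean that includes a high array, ko 54 for ko 53 and control 16 for control 62. This lowers them by construction, and the part of the slide was not tested. Control 16 also had the highest share of probes well above background (72.7%) and the highest summed levels of microglial and of meningeal markers, given with the other cell types at the end, and their part in this result was not tested. In whole tissue, fewer cells of a type and less RNA per cell cannot be told apart.

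The ko group held a smaller difference of the same kind. On ko 54 the members' median was 0.32 above the mean of the other 2 ko arrays, 27 of 32 members lay above it, and 19 members had their second highest level there. Markers of vessel cells (summed level 19.1, against 15.9 and 15.4 on ko 53 and 48) and of red blood cells (87.6, against 42.5 and 65.5) were also highest of the ko arrays there. So were those of microglia (23.3, against 21.8 and 21.6), meninges (6.06, against 5.24 and 5.57), perivascular macrophages, and neutrophils and monocytes. Those of neurons, astrocytes, oligodendrocytes, lymphocytes and choroid plexus were not, and the vessel marker Pecam1 was highest on ko 53. The part of these cell types was not tested. On ko 48 the median was -0.17, and on control 15 it was -0.55. Both are set against a mean that includes the high array of the group, ko 54 or control 16, which lowers them by construction.

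**Figure D1:**
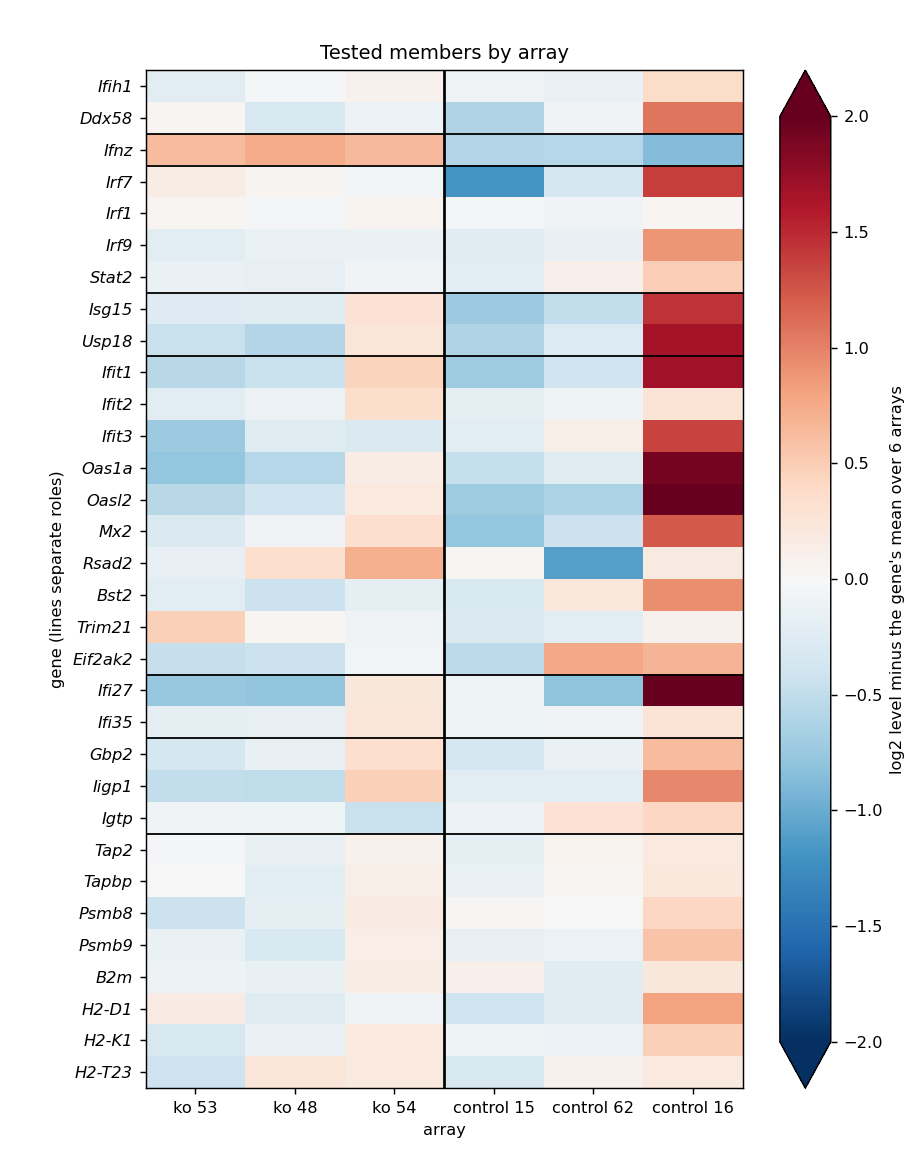
Each cell is the log2 level of a tested member on an array minus that gene's mean over the 6 arrays, with red above and blue below the mean, ko arrays left of control arrays and lines between roles. The column of control 16 is red for most members, and Ifnz alone is red on all ko arrays and blue on all control arrays.

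**Figure D2:**
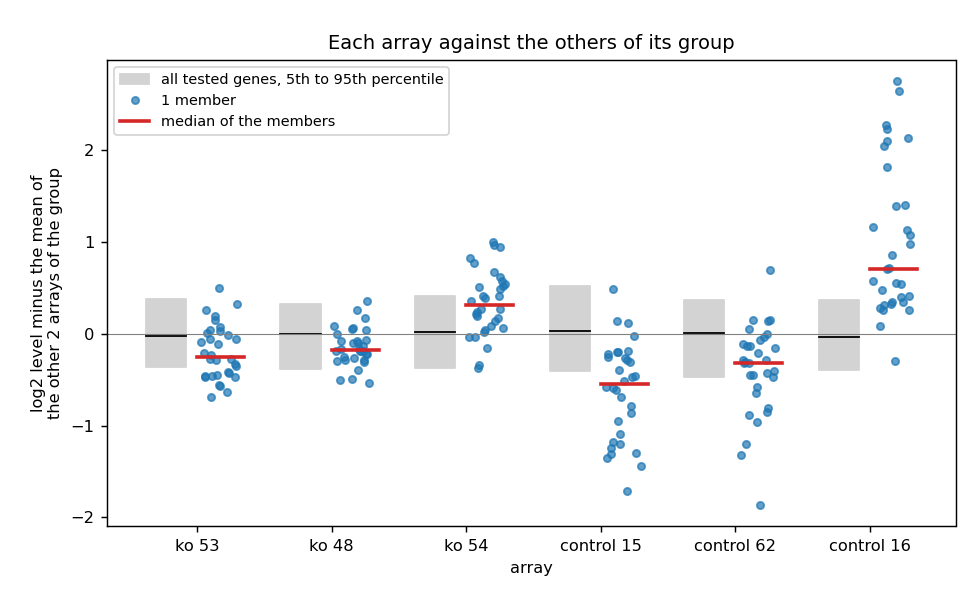
Each point is a tested member's log2 level on an array minus the mean of the other 2 arrays of its group, with ko arrays on the left, the members' median as a red line and the 5th to 95th percentile of all tested genes as a grey box with its median in black. The members' median is 0.71 on control 16 and 0.32 on ko 54, and lies below 0 on the other 4 arrays.

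Between the groups, 1 of the 32 tested members passed an adjusted p of 0.05 in limma, where 0.128% of all tested genes did. It was Ifnz, an interferon, which rose in the ko arrays. No other member passed in either direction, and the lowest limma adjusted p among the other 31 was 0.637. This does not show that the 31 were unchanged, since the SE of a difference was as large as 0.76 (Ifi27). At an unadjusted p under 0.05 Ifnz was again the only member, against 8.27% of all tested genes. The direction of the other differences turned with control 16: 25 of 32 members averaged lower in the ko arrays with all arrays in, and 7 of 32 without control 16. Among all tested genes these shares were 51.8% and 55.0%. Since 31 of 32 members lay above the other controls on control 16, leaving it out raises their ko minus control by construction. Ddx58, which entered through the control arrays, is among the 25. Of the 30 members well above background on all 6 arrays, 24 averaged lower.

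Ifnz, also known as limitin, is a type I interferon of the cluster on mouse chromosome 4. Its levels were -1.76, -1.66 and -1.74 on the ko arrays, against -2.97, -2.97 and -3.26 on the control arrays. Every ko array was above every control array, as in 6.38% of all tested genes, and by more than the spread within either group. The difference was 1.35 (2.55-fold, SE 0.10, 95% interval 1.10 to 1.60, n = 3 each, limma adjusted p = 0.0145). Within slide 1 it was 1.28 and within slide 2 it was 1.36, and with slide as a block it was 1.32 and no longer passed (limma adjusted p = 0.0521). The call was also lost under normexp background (0.86, limma adjusted p = 0.988), with no filter on dim probes (limma adjusted p = 0.181), with a filter of at least 1 array above background (limma adjusted p = 0.0729) and when control 15, control 16, ko 48 or ko 54 was left out (limma adjusted p = 0.0585 to 0.106), with a difference between 1.25 and 1.40 in those 4 cases.

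Which interferon gene this probe measured is uncertain. Between Klhl9 and Ifna7 in this cluster the gene table has 14 other protein-coding genes, 0 of them on the array under its own name, and 2 of them carry Ifnz or limitin as a synonym. A second probe named Ifnz was well above background on control 15 only. Ifnb1, Ifng, Ifna2 and Ifna4, other interferons, were well above background on no array, and Ifna1 was so on 1 control array.

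**Figure D3:**
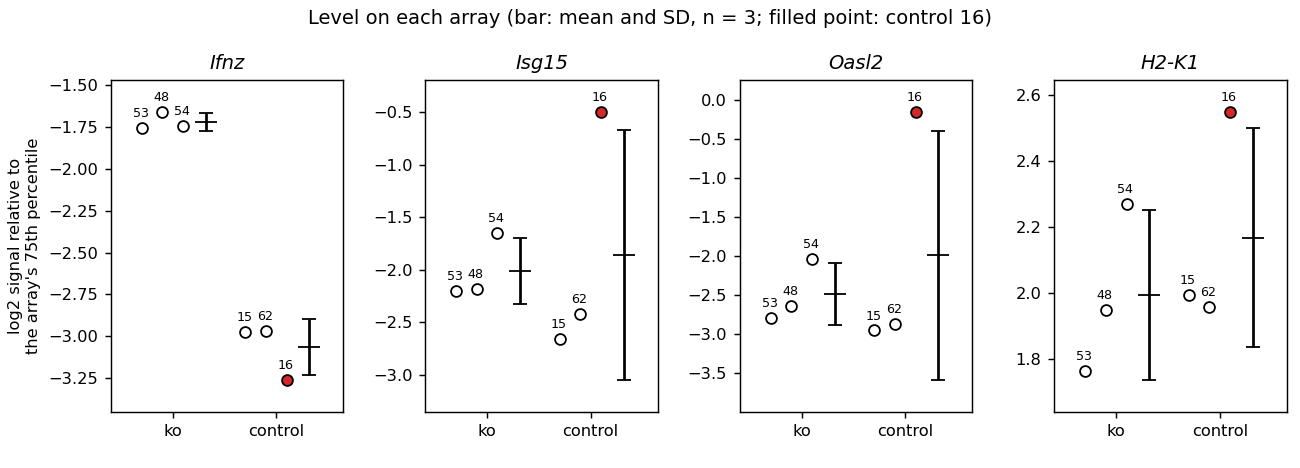
Points are log2 levels relative to the array's 75th percentile for Ifnz, Isg15, Oasl2 and H2-K1 on the ko arrays, left, and the control arrays, right, each panel with its own scale, and bars are the mean and SD (n = 3). Ifnz separates the groups, while in Isg15, Oasl2 and H2-K1 control 16 (filled) is above all other arrays.

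The sensors are Ddx58 (RIG-I) and Ifih1 (MDA5), helicases that detect viral RNA in the cytoplasm. Ddx58 had levels of -4.08, -4.44 and -4.24 on the ko arrays, against -4.72, -4.20 and -3.06 on the control arrays. Control 16 was the highest of the 6 and the groups overlapped (difference -0.26, SE 0.40, limma adjusted p = 0.93). Ifih1 had levels of -2.77, -2.56 and -2.45 on the ko arrays, against -2.62, -2.68 and -2.17 on the control arrays, so that it too was highest on control 16, by 0.48 over the other controls, and its groups overlapped (difference -0.11, limma adjusted p = 0.93).

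Of the signalling factors, Irf7 amplifies type I interferon production and is itself induced by interferon, and Irf9 is the DNA-binding part of the complex that also holds Stat2. Irf7 had levels of -4.07, -4.17 and -4.27 on the ko arrays, against -5.41, -4.56 and -2.85 on the control arrays. Control 16 was the highest array and the ko arrays lay within 0.20 of each other, while the probe was not well above background on control 15, so that its value there is only a bound. Irf9 had levels of -1.59, -1.50 and -1.50 on the ko arrays, against -1.61, -1.51 and -0.49 on the control arrays, where control 16 stood alone and the other 5 arrays lay within 0.11 of each other. Stat2 was 0.55 higher on control 16 than on the other controls, and it averaged -0.24 in ko minus control (limma adjusted p = 0.82), or -0.06 without control 16. Irf1, a factor induced chiefly by interferon gamma, had levels of 0.49, 0.40 and 0.51 on the ko arrays, against 0.41, 0.37 and 0.48 on the control arrays, and did not stand out on control 16, where it was 0.09 above the other controls. None of the 4 passed the test (limma adjusted p = 0.82 to 0.984).

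Isg15 is conjugated to other proteins after infection, and Usp18 removes it and dampens signalling at the interferon receptor. Isg15 had levels of -2.20, -2.18 and -1.65 on the ko arrays, against -2.66, -2.42 and -0.49 on the control arrays. It was 4.14-fold higher on control 16 than on the other controls, and the ko arrays lay between control 16 and the other 2 controls. Usp18 had levels of -3.86, -4.002 and -3.16 on the ko arrays, against -4.01, -3.68 and -1.74 on the control arrays, a 4.3-fold excess on control 16, with ko 54 the second highest array. Differences between the groups were -0.15 for Isg15 (SE 0.56, limma adjusted p = 0.975) and -0.53 for Usp18 (SE 0.59, limma adjusted p = 0.894), and both turned without control 16, to 0.53 and 0.17.

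Among the antiviral effectors, Oasl2, a relative of the oligoadenylate synthetases, had levels of -2.79, -2.64 and -2.04 on the ko arrays, against -2.95, -2.87 and -0.16 on the control arrays. It was 6.76-fold higher on control 16 than on the other controls, and the other 5 arrays lay within 0.91 of each other. Oas1a had levels of -4.75, -4.54 and -3.82 on the ko arrays, against -4.45, -4.21 and -2.05 on the control arrays, again with control 16 the highest, 4.85-fold over the other controls, and ko 54 the second. Ifit1 had levels of -4.02, -3.92 and -3.03 on the ko arrays, against -4.19, -3.88 and -1.80 on the control arrays. Control 16 was the highest array and ko 54 the second, 0.94 above the other ko arrays. Both Oas1a and Oasl2 lie on chromosome 5, as Cux2 does.

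Ifit3, a relative of Ifit1, was the only member whose ko arrays all lay below the control arrays, a pattern found in 7.24% of all tested genes. Its levels were -1.02, -0.54 and -0.59 on the ko arrays, against -0.51, -0.18 and 1.05 on the control arrays. The margin between the groups was 0.03, between ko 48 and control 15, and the difference of -0.83 (SE 0.39) did not pass (limma adjusted p = 0.676). Without control 16 it was -0.37. Ifit2, of the same family, had levels of -2.77, -2.68 and -2.21 on the ko arrays, against -2.75, -2.65 and -2.29 on the control arrays. It differed by 0.01 (SE 0.19) and was highest on ko 54.

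Mx2, a dynamin-like GTPase, had levels of -2.94, -2.72 and -2.30 on the ko arrays, against -3.42, -3.07 and -1.42 on the control arrays, with control 16 the highest array and control 15 the lowest. Bst2 (tetherin), which holds budding virus at the cell surface, had levels of -0.19, -0.39 and -0.15 on the ko arrays, against -0.26, 0.24 and 0.97 on the control arrays. Control 15 lay among the ko arrays and the other controls above them, and the difference of -0.56 (SE 0.29, limma adjusted p = 0.717) was -0.23 without control 16. Eif2ak2 (PKR), the kinase that halts translation when it binds double-stranded RNA, had levels of -3.78, -3.76 and -3.38 on the ko arrays, against -3.84, -2.55 and -2.65 on the control arrays. Here control 62 and control 16 were both high and control 15 was the lowest of all 6 arrays (difference -0.63, SE 0.35, limma adjusted p = 0.734).

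Rsad2 (viperin), a radical-SAM enzyme against viral replication, ran the other way, with levels of -2.90, -2.40 and -2.02 on the ko arrays, against -2.71, -3.84 and -2.57 on the control arrays. Ko 54 was the highest array and control 62 the lowest, and the difference of 0.60 (SE 0.38) did not pass (limma adjusted p = 0.778) and was 0.20 without control 62. Trim21, a cytosolic receptor for antibody-coated virus, had levels of -3.17, -3.62 and -3.73 on the ko arrays, against -3.95, -3.89 and -3.57 on the control arrays. It was highest on ko 53, and its difference of 0.29 (SE 0.17) did not pass either (limma adjusted p = 0.765) and was 0.12 without ko 53. Of the 10 tested effectors 7 averaged lower and 3 higher in the ko arrays, and without control 16 these counts were 4 and 6. The untested effectors were well above background on 1 ko and 1 control array each, and Oas2 was highest on control 16 and Mx1 on ko 53.

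Among the other induced genes the largest excess was in the gene that the array names Ifi27. Its levels were -1.84, -1.89 and -0.86 on the ko arrays, against -1.18, -1.89 and 1.12 on the control arrays, so that control 16 stood 6.28-fold above the other controls and ko 54 was the second highest. This had the largest negative difference of all members, -0.88, but its SE of 0.76 was also the largest (limma adjusted p = 0.845), and without control 16 the difference was 0.00. The accession of this probe is named Ifi27l2a in the gene table, a relative of Ifi27. The gene that the table names Ifi27 is carried by the array under a clone name, at 3.32, 3.27 and 3.55 on the ko arrays, against 3.36, 3.44 and 3.95 on the control arrays, and was 0.55 above the other controls on control 16. Ifi35 had levels of -2.17, -2.14 and -1.75 on the ko arrays, against -2.08, -2.06 and -1.72 on the control arrays, and Ifi44, not tested, was also highest on control 16.

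The GTPases guard against bacteria and parasites inside the cell. Iigp1 had levels of -3.21, -3.23 and -2.25 on the ko arrays, against -2.93, -2.92 and -1.76 on the control arrays, with control 16 the highest array and ko 54 the second. Gbp2 had levels of -2.61, -2.40 and -1.93 on the ko arrays, against -2.59, -2.39 and -1.62 on the control arrays, with the same arrays highest and second. Igtp (Irgm3) differed from both: its levels were -0.19, -0.21 and -0.57 on the ko arrays, against -0.23, 0.17 and 0.30 on the control arrays, ko 54 was the lowest array, and its difference of -0.40 (SE 0.17) had the lowest p of the members after Ifnz (limma adjusted p = 0.637). Gbp3, which the naming rule did not find, has an accession that the array lists as Gbp4, and that probe had levels of -1.60, -1.56 and -1.33 on the ko arrays, against -1.98, -1.40 and -0.48 on the control arrays, 1.21 above the other controls on control 16.

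The antigen presentation genes shared the excess on control 16 at a smaller size. Their median there was 0.36 above the other controls (1.28-fold), against 1.18 (2.27-fold) for the effectors and 2.08 (4.22-fold) for Isg15 and Usp18. H2-D1, a classical class I heavy chain, had levels of 1.88, 1.47 and 1.64 on the ko arrays, against 1.31, 1.47 and 2.53 on the control arrays. Control 16 was the highest array by 0.65, and the groups overlapped (difference -0.11, SE 0.32, limma adjusted p = 0.968). H2-K1, the other classical heavy chain of the list, had levels of 1.76, 1.95 and 2.27 on the ko arrays, against 1.996, 1.96 and 2.55 on the control arrays, with control 16 the highest and ko 54 the second. B2m, the light chain of all class I molecules, had levels of 1.91, 1.87 and 2.16 on the ko arrays, against 2.12, 1.77 and 2.24 on the control arrays, and its difference was -0.06 (SE 0.15, limma adjusted p = 0.958).

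H2-T23, the heavy chain of the non-classical molecule Qa-1, had levels of 1.92, 2.58 and 2.53 on the ko arrays, against 2.02, 2.43 and 2.54 on the control arrays. It was highest on ko 48 and lowest on ko 53, so the ko group alone spanned its range. The immunoproteasome subunit Psmb8 had levels of -1.07, -0.84 and -0.46 on the ko arrays, against -0.62, -0.63 and -0.22 on the control arrays, and Psmb9 had levels of -1.31, -1.48 and -1.04 on the ko arrays, against -1.34, -1.29 and -0.60 on the control arrays. Both were highest on control 16, and their groups overlapped. Tap2 and Tapbp, the peptide transporter subunit and the tapasin that tethers it to class I, were each 0.26 above the other controls on control 16, and differed by -0.06 and -0.08. Tap1, not tested, was highest on control 16. Probes of class I genes can bind transcripts of near-identical relatives in the H2 cluster on chromosome 17, so the heavy chain each one measured is uncertain.

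Over the whole list, the median difference of the 32 members was -0.16, with a range from -0.88 (Ifi27) to 1.35 (Ifnz), against a median of -0.01 for all tested genes. Of the members 78.1% averaged lower in the ko arrays, against 51.8% of all tested genes. Without control 16 the members' median was 0.05, against -0.02 for all genes, and no member passed an adjusted p of 0.05 in limma, where 0.0117% of all genes did. Ifnz (1.25), Mx2 (0.59) and Isg15 (0.53) were then higher in the ko arrays at an unadjusted p under 0.05, against 3.12% of all genes. Irf7 also reached that p, but it had entered the test through the ko arrays and is not counted. Mx2 and Isg15 were 1.82 and 2.05 above the other controls on control 16. Leaving it out by itself raises their ko minus control and narrows the control spread, so their p-values are no evidence of a rise. Within slide 1, which holds ko 48, ko 54 and control 15, the median was 0.22 and 6 of 32 members were lower. Within slide 2, which holds ko 53, control 62 and control 16, it was -0.47 and 28 of 32 were lower. With no scaling between arrays 15 of 32 were lower, where the median difference of all tested probes also moved, by 0.17, and with normexp background 12 of 32 were.

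**Figure D4:**
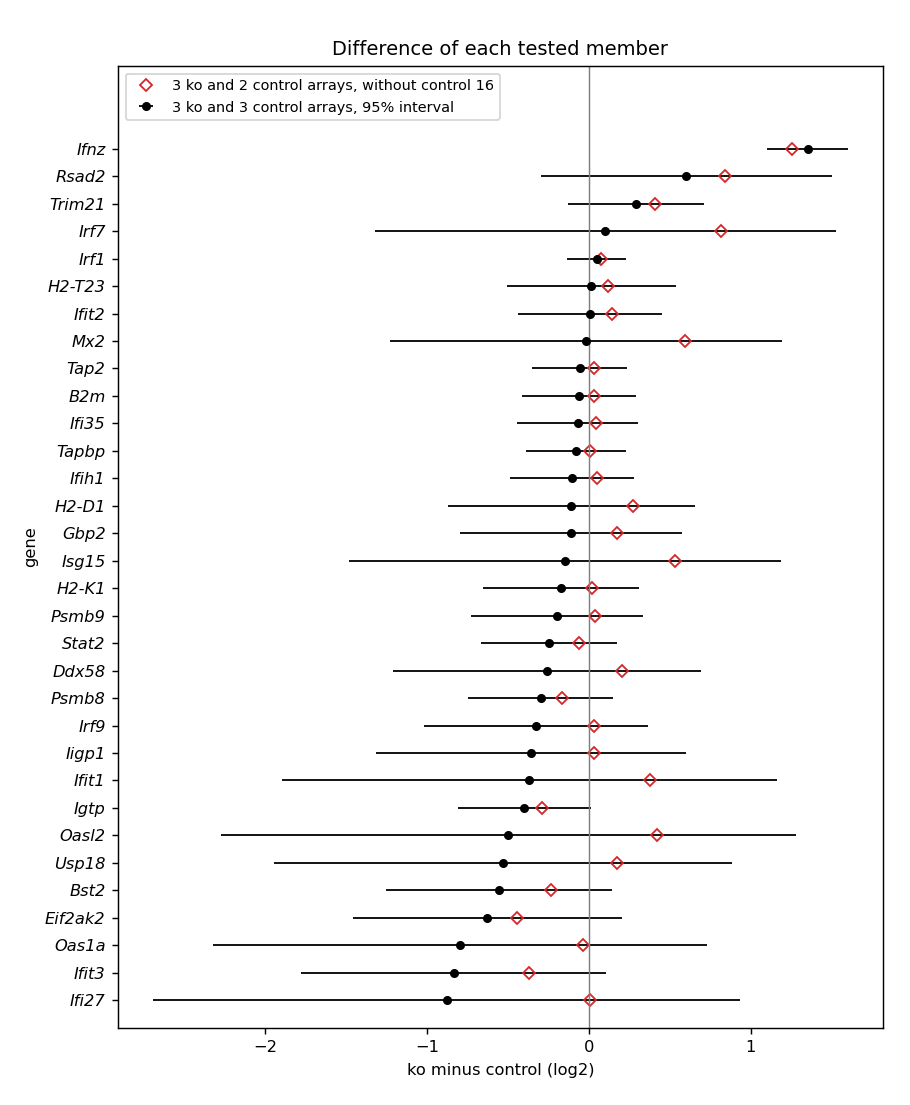
Black points are ko minus control (log2) for each tested member over 3 ko and 3 control arrays with 95% intervals, and open diamonds are the same difference without control 16. Only the interval of Ifnz excludes 0, and 18 members change sign when control 16 is left out.

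Several members had a further probe. Of 11 further probes tested, in 8 genes, 10 had the same sign on control 16 as the brightest probe, and 9 averaged lower in the ko arrays with 0 past an adjusted p of 0.05 in limma (0 also at an unadjusted p of 0.05). The further probes of Ifi27 lay 2.71 and 2.63 above the other controls on control 16, where the brightest lay 2.65 above, and that of Ifit3 lay 1.37 above, where the brightest lay 1.39 above. The exception was a probe of Ddx58 at -0.87. That probe and a further probe of B2m, at 0.65 on control 16, entered the test only through the control arrays. The place of the B2m probe among the 10, and of both probes among the 9, is therefore no support for a pattern. Promoters with and without the ISRE letters both belonged to genes that stood high on control 16: the median excess was 0.87 over the 11 tested members that hold the letters and 0.51 over the 16 that do not, with ranges from 0.29 to 2.28 and from -0.29 to 2.76. Isg15, Ifit1, Ifit3 and Oas1a are in the first group, and Oasl2 is in the second.

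The rest of the pathway was read from lists of 88 further genes, of which 85 were on the array and 67 were tested. Of the 67, 0 passed an adjusted p of 0.05 in limma, and 6 reached an unadjusted p under 0.05, all lower in the ko arrays, as were 4.38% of all tested genes. Irf8, a factor of microglia and other myeloid cells, had levels of -0.65, -0.46 and -0.42 on the ko arrays, against -0.07, -0.13 and 0.11 on the control arrays, and every ko array was below every control array (difference -0.48, SE 0.10, limma adjusted p = 0.272). Tmem173 (STING), the adaptor of cytosolic DNA sensing, had levels of -0.51, -0.30 and -0.40 on the ko arrays, against 0.04, -0.04 and -0.15 on the control arrays, also without overlap (difference -0.35, limma adjusted p = 0.397). The other 4 were Irf5 (-0.35), the nuclease Trex1 (-0.39), the interferon gamma receptor chain Ifngr1 (-0.36) and Slfn2 (-0.50). Without control 16 the difference was -0.24 for Trex1 and -0.27 for Slfn2, and without control 15 it was -0.21 for Ifngr1.

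The 10 genes of receptors, kinases and their downstream factors and inhibitors, Ifnar1, Ifnar2, Jak1 and Tyk2 among them, were all tested, and their median on control 16 was -0.02 relative to the other controls. They went both ways there. Ifnar1, Ifnar2 and Tyk2 were highest on control 16, 0.27, 0.19 and 0.40 above the other controls, while Jak1 was at -0.10, Ifngr1 at -0.20 and Jak2 at -0.28. The 28 tested genes of the list of further induced genes had a median of 0.69 there, close to that of the members, and 21 of the 28 were highest on control 16. Among them Ccl5, a chemokine for T cells, had levels of -2.90, -3.44 and -3.01 on the ko arrays, against -3.30, -4.23 and -1.50 on the control arrays, and Rtp4, a chaperone of receptors at the cell surface, had levels of -0.39, -0.36 and -0.17 on the ko arrays, against -0.52, -0.54 and 0.90 on the control arrays. In both, control 16 was above all other arrays. Lgals3bp, Ifi204 and Trim30a also lay more than 1 log2 unit above the other controls, by 1.07, 1.01 and 1.01. Ifi204, like Ifi203 and Herc6, entered the test only through the control arrays, the group of control 16. The places of Ifi203, Ifi204 and Herc6 among the 21, and that of Ifi204 here, are therefore no support for the pattern. The 3 tested genes of MHC class II presentation, H2-Ab1, H2-Eb1 and Cd74, were highest on control 16 too, at a median of 0.90 above the other controls. The 9 tested genes of the further class I list went both ways there, with a median of -0.11: the heavy chain H2-Q7 was 0.96 above the other controls and highest on control 16, as was H2-M3 at 0.22, while H2-T10 was at -0.35 and the chaperone Pdia3 at -0.32.

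Whole cortex holds many cell types, and markers of several were set beside the members. Of 9 microglial markers, 9 were tested and 9 averaged lower in the ko arrays, 7 of them at an unadjusted p under 0.05 (against 4.38% of all genes) and 0 past an adjusted p of 0.05 in limma. Their summed level, in units of the 75th percentile of the array, ranged from 21.6 to 23.3 on the ko arrays, against 31.1, 28.2 and 36.1 on control 15, 62 and 16. Control 16 thus had the highest summed level of microglial markers as well, and 6 of the 9 were highest on it. Tmem119 and P2ry12 were highest on control 62 and Ly86 on control 15. Control 15, the second highest by the sum of these markers, was the lowest array for 13 of the 32 members. The summed level of 5 cortical neuron markers ranged from 88.4 to 90.7 on the ko arrays, against 90.6, 91.8 and 77.3 on control 15, 62 and 16. The low sum on control 16 rests mainly on Snap25, the brightest of the 5, at -0.31 relative to the other controls. The median of the 5 there was -0.09, and Slc17a7 was at 0.10. Among 7 markers of lymphocytes, Cd3e alone was tested, at -4.75, -4.38 and -5.26 on the ko arrays, against -4.95, -4.99 and -5.11 on the control arrays, and on no array did Cd3g or Cd8a reach well above background. Of the 6 untested ones, Ms4a1 and Nkg7 were highest on control 16, the 1 array on which Ms4a1 was well above background. The summed level of 3 meningeal markers, Dcn, Lum and Col1a1, was 5.24, 5.57 and 6.06 on ko 53, 48 and 54, against 4.92, 5.49 and 7.58 on control 15, 62 and 16, again highest on control 16. Dcn and Col1a1 were highest there, and Lum was highest on ko 54. The part of these cell types in the levels of the members was not tested.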

How the data were processed

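Cortex RNA of 3 ko and 3 control samples was amplified with Cy3 for 1-colour Agilent arrays, 1 per sample, per the labels' protocols. Per the file headers, the processed signal is an intensity from Agilent Feature Extraction 9.1.3.1, background-subtracted and detrended within the array, and the mean spot and local background signals are uncorrected intensity values. The deposited flags for spots above background and outliers came from the same software, per the file headers. The authors also deposited log2 values, which by their columns' shared distribution are quantile normalized; their other steps are not given in the sources used here.

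Control spots (1639 of 45018) and 120 outlier spot values were left out, 0 spots were saturated, and spots of a probe were averaged, which gave 41174 probes. Each value is the log2 processed signal less the 75th percentile of its array. Testing took the 25505 probes that were well above background on every array of at least 1 group. Because this rule sees the groups, a probe bright in 1 group can enter through it. The test was limma 3.58.1 (lmFit, eBayes; R 4.3.3), with Benjamini-Hochberg adjustment over all 25505 probes at 0.05, and the brightest probe stood for each of 17122 genes. The procedure was tested on simulated data. An exact permutation test of 3 against 3 arrays cannot give a two-sided p below 0.1, so none was used.

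Members were matched by the names in the array files. Other probes were named by accession (22905), symbol (6646) or synonym (3109) through a RefSeq gene table of GRCm38.p6, and 8455 kept the array's name. Promoter sequences are from RefSeq, GRCm38.p6. The build of the array annotation was not given. Every member could be named, with the genes of the pathway and marker lists. The members and lists were chosen with earlier results of these data known, and some listed pathway and marker genes that are no members are not reported here. Slides come from the array barcodes, 2 in all, with ko 48, ko 54 and control 15 on slide 1. Alternatives changed the scaling, background correction (normexp, offset 50), filter, variance model, array weights, probe summary, slide block, values and arrays. Plots used Python 3.11.15 with matplotlib 3.10.9. The number of arrays limits the precision.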

Additional observations from a re-analysis of the deposited data

How the results depend on the processing

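The alternatives changed the scaling, the background correction, the filter, the model of the variance, array weights, how probes were summarised, the slide term, the source of the values and which arrays were in, 20 settings in all. The difference of Ifnz was positive in all of them, from 0.86 (normexp background) to 1.52 (no scaling). The number of members past the threshold was 0 with no filter on dim probes, with a filter of at least 1 array above background, with normexp background and with slide as a block, and it was 0 to 1 as single arrays were left out. The number of members lower in the ko arrays was 15 with no scaling, 12 with normexp background and 6 within slide 1, and 7 (of 32 tested) to 30 (of 34 tested, or 28 of the first 32) as single arrays were left out. The members' median was 0.22 within slide 1 and -0.39 to 0.049 as single arrays were left out. The 67 pathway genes gave 0 calls in every setting with a test. Over all tested probes 33 were called, against 2 with no filter on dim probes, 3 with a filter of at least 1 array, 0 with normexp background, 15 with slide as a block and 19 with 1 value per gene, and 2 to 62 as single arrays were left out. The cause of these changes was not tested.

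With no scaling between arrays, the sign turned for Ifi35 (0.10), Isg15 (0.026), Mx2 (0.16), Gbp2 (0.062), Tap2 (0.12), Tapbp (0.094), B2m (0.11), H2-D1 (0.067), H2-K1 (0.0012) and Ifih1 (0.068). With normexp background, the sign turned for Ifit1 (0.30), Ifi35 (0.14), Isg15 (0.20), Usp18 (0.24), Oas1a (0.29), Oasl2 (0.12), Mx2 (0.36), Gbp2 (0.15), Iigp1 (0.18), Tap2 (0.11), Psmb9 (0.0066), H2-T23 (-0.051), Ifih1 (0.20), Ddx58 (0.51) and Eif2ak2 (0.11). With slide as a block, the sign turned for Isg15 (0.0039), Mx2 (0.11), H2-D1 (0.061) and H2-T23 (-0.013). With array weights, the sign turned for Ifit2 (-0.057) and H2-T23 (-0.022). With median scaling, the sign turned for Ifit2 (-0.029) and H2-T23 (-0.021). With quantile scaling, the sign turned for Ifit2 (-0.021). With the authors' deposited log2 values, the sign turned for Ifit2 (-0.023). With the mean of a gene's tested probes, the sign turned for Irf1 (-0.13). As single arrays were left out, the difference took both signs for Ifit2 (-0.16 to 0.15), Irf7 (-0.47 to 0.81), H2-T23 (-0.14 to 0.23), Ifit1 (-0.82 to 0.38), Ifi27 (-1.50 to 0.0045), Ifi35 (-0.21 to 0.045), Isg15 (-0.55 to 0.53), Usp18 (-0.96 to 0.17), Irf9 (-0.53 to 0.030), Oasl2 (-0.98 to 0.42) and Mx2 (-0.41 to 0.59). It did so as well for Gbp2 (-0.31 to 0.18), Iigp1 (-0.68 to 0.032), Tap2 (-0.16 to 0.029), Tapbp (-0.17 to 0.014), Psmb9 (-0.33 to 0.039), B2m (-0.20 to 0.034), H2-D1 (-0.34 to 0.27), H2-K1 (-0.31 to 0.018), Ifih1 (-0.20 to 0.053) and Ddx58 (-0.63 to 0.21). No paired analysis was possible because the ko and control samples share no replicate numbers. Dim probes limit the precision for Irf7 and Ddx58, whose differences rest partly on arrays not well above background, and Ifi44, Oas2, Mx1 and Tap1 were not well above background on enough arrays for a test.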

Other observations

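Of the 9 further induced genes on the array that were too dim for a test, 5 were highest on control 16 as well, and Oas1b, Oas1g, Oas3 and Ifi205 were highest on a ko array. The 3 genes given next were chosen after their values were seen. Cxcl10, a chemokine that draws T cells and that both interferon types induce, had log2 levels of -7.11, -6.51 and -4.68 on the ko arrays, against -6.26, -6.91 and -2.24 on the control arrays, and was well above background on ko 54 and control 16 only. Zbp1, a sensor of nucleic acids in Z conformation, had levels of -5.83, -6.58 and -4.91 on the ko arrays, against -5.59, -6.20 and -3.56 on the control arrays, and Oasl1, a relative of Oasl2, had levels of -5.85, -6.54 and -5.30 on the ko arrays, against -7.58, -6.35 and -4.19 on the control arrays. Both were well above background on ko 54 and control 16 only. These 2 arrays are also the ones on which the median of the 32 members was above the other arrays of the group. Because the 3 genes were chosen with their values known, this likeness was set by the choice and is no support for the pattern.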
